A study of Caenorhabditis elegans with 4 samples.

Results

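The regions described here are the MML-1 binding regions of chromosome IV of Caenorhabditis elegans, selected on the deposited peak lists by chromosome and, in the replicate lists, by peak number. All 70 peaks of the combined list that lay on IV were taken, of 396 in all. From the list of each ChIP replicate the IV peaks numbered 3000 or lower were taken, which gave 452 of 3000 in replicate 1 and 443 of 3000 in replicate 2. Low numbers go with high scores (Spearman rho over the whole lists -0.999996), but only in broad order: the 263 lowest numbers of replicate 1 and the 429 lowest of replicate 2 share a score ceiling, and beyond it the score often rises from a number to the next. A number is therefore a place in the list, not a measured strength. The remaining 4224 and 4252 IV peaks, with higher numbers, served as background. All 4 samples of the series, 2 anti-GFP ChIP samples and 2 inputs, came from L3 hermaphrodites of the strain OP198 grown at 20 °C. Every sample carried the unc-119(ed3) mutation and the transgene wgIs198, introduced by bombardment, which holds mml-1 joined to a TY1 EGFP FLAG C tag beside unc-119. The peaks therefore report the tagged protein of a single transgenic strain in whole larvae, and a region bound in few cells cannot be told apart from one bound weakly in many. The labels do not say whether the replicates came from separate cultures.

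MML-1 is the worm member of the Mondo family of basic helix-loop-helix leucine zipper transcription factors. It acts together with the Max-like protein MXL-2, and both have been studied for their part in metabolism and lifespan. In mammals, the Mondo proteins MondoA and ChREBP link glucose to gene expression. Worm autosomes have a central region in which crossovers are rare and arms in which they are frequent. Repeats and silenced chromatin are more common on the arms, and conserved genes more common in the centre. No genome or annotation of the WS220 build was used here, so the regions are given by position alone, with no sequence and no gene name.

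The span of IV covered by peaks was divided into 3 equal parts, called left arm, centre (5846561 to 11669540) and right arm. These parts were set by length alone. They are not the arms and central region defined by crossovers, whose borders were not used here. The smallest q-values on IV fell at a few regions that the combined list and both replicates placed alike. The combined peak at 13394712 to 13395842, on the right arm, had a q-value of 5.85e-126, the smallest of all 396 peaks, and held peak number 1 of both replicates. In replicate 1 that peak covered 13395235 to 13395609 and in replicate 2 it covered 13395257 to 13395612, so that the midpoints lay 12.5 bp apart. The central peak at 6878790 to 6879654 (q = 2.68e-85) held peak number 3 of replicate 1, at 6878938 to 6879266, and number 2 of replicate 2, at 6878938 to 6879255. The start of the interval was the same base in both replicates. On the right arm, the peak at 11961524 to 11962697 (q = 4.22e-81) held numbers 4 and 7 of replicates 1 and 2. On the left arm, the peak at 3653334 to 3654982 (q = 1.25e-62), which at 1649 bp was the widest of the 70, held numbers 6 and 11. These 4 were the only IV peaks with a q-value below 1e-50, and they stood 1, 3, 4 and 8 in the combined list by q-value. At each of them the midpoints of the replicate peaks lay within 14.5 bp of each other. The q-values are those of the authors' peak caller.

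The next 8 combined peaks on IV were far weaker by q-value, and the replicates differed more at them. The central peak at 7047588 to 7048199 (q = 7.86e-25) came as number 52 in replicate 1 and 49 in the other replicate. The left peak at 2601941 to 2602372 (q = 4.19e-21) came as number 29 and 100. The right peak at 16171325 to 16171670 (q = 3.37e-17) came as number 31 and 24, and the left peak at 1454187 to 1454605 (q = 2.25e-12) as number 64 and 166. All of these stood high in both lists. Others had a far lower number in replicate 1. The central peak at 8527444 to 8528054 (q = 1.72e-17) had numbers 70 and 685 in replicates 1 and 2, and the one at 11148851 to 11149386 (q = 8.36e-15) had numbers 68 and 1325. The peak at 6881155 to 6881541 (q = 2.52e-11) had numbers 53 and 240, both at the score ceiling of their list. The peak at 10935227 to 10935712 (q = 2.25e-19) held number 35 of replicate 1, while the nearest member of replicate 2, number 47, lay 201 bp away without touching it.

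Most of the 70 peaks were weak by q-value and short. The median q-value was 0.000578 and the largest 0.00982, and 22 of the 70 had a q-value below 1e-05. The median width was 246 bp, with 10 peaks narrower than 100 bp and a narrowest of 1 bp, at 3419715. The replicate peaks had nearly all the same width: 444 of the 452 IV members of replicate 1 were 504 bp wide and 439 of the 443 of replicate 2 were 520 bp wide. The narrower members all had low numbers, of 52 or lower in replicate 1 and 11 or lower in replicate 2. Scores of members ran from 0.822 to 2.72 in replicate 1 (median 1.12) and from 0.912 to 2.46 in replicate 2 (median 1.44). The upper end is the score ceiling, which 39 and 64 members shared. The limit of 3000 cut through an even run of values. The last IV peak inside it in replicate 1, at 3010461 to 3010964, was number 3000 with a score of 0.822. The first outside, at 10866763 to 10867266, was number 3009 with a score of 0.820. In replicate 2 these were number 2990 at 9953551 to 9954070, with a score of 0.913, and number 3003 at 10913971 to 10914490, with a score of 0.904.

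Chromosome IV carried fewer replicate members per length than any other chromosome, while in the combined list it stood between the others. Its span from the first to the last peak of the lists was 17.5 Mb, 17.4% of the summed spans. It held 25.9 members per Mb in replicate 1 and 25.4 in replicate 2, the lowest values of the 6 chromosomes in both lists. Chromosome V was next, with 26.0 and 27.1 per Mb, and X was highest, with 38.7 and 40.8. In shares, IV held 15.1% of the first 3000 peaks of replicate 1 (exact 95% interval 13.8 to 16.4%). It held 14.8% of those of replicate 2 (13.5 to 16.1%). Both intervals lie below its share of the span. In the whole lists IV held 4676 of 30000 peaks in replicate 1 and 4695 of 30000 in replicate 2. Both of these shares lie inside the intervals, so the low share was not particular to the members. Of the combined list IV held 17.7% (14.0 to 21.8%), or 4.01 peaks per Mb. That was below X with 6.38 and II with 4.13, and above III with 3.48, V with 3.39 and I with 2.06. The interval of the combined share overlaps those of the replicates, and the difference between the lists was not tested. Here and below the intervals cover counting error only. They count each peak as if it stood alone, yet peaks lie in groups, and no test was run for that reason.

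In 1 Mb bins the replicate members formed a broad hump over the middle of the chromosome. Among full bins, counts were lowest in bins 16 and 17 in replicate 1 and in bins 17 and 2 in replicate 2. The combined list followed this outline only in part, with bin 4 as high as bin 10. The combined list had its highest counts in bin 12, from 11000001 to 12000000, with 11 peaks, and in bin 9, from 8000001 to 9000000, with 10. Bins 4 and 10 followed with 7 each. To the right of bin 12 the counts dropped to 1 peak in bin 13, 2 in bin 14, 1 in bin 15, none in bin 16 and 2 in bin 17. Bin 12 was also the highest in both replicates, with 47 and 42 members. The lowest full bins were bin 16 in replicate 1, with 9 members, and bin 17 in replicate 2, with 12. The shorter bin 18, from 17000001 to 17492518, held no combined peak, 9 members of replicate 1 and 13 of replicate 2. Single bins differed between replicates: bin 1 held 16 members in replicate 1 and 25 in replicate 2, and bin 16 held 9 and 16. The 3 bins with the most combined peaks (4, 9 and 12, where 10 tied with 4) held 40.0% of these peaks on 17.2% of the span. The same bins held 23.9% and 23.0% of the replicate members and 20.0% and 20.1% of the background peaks. Because the bins were picked by their combined counts, this comparison favours the combined share.

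**Figure D1:**
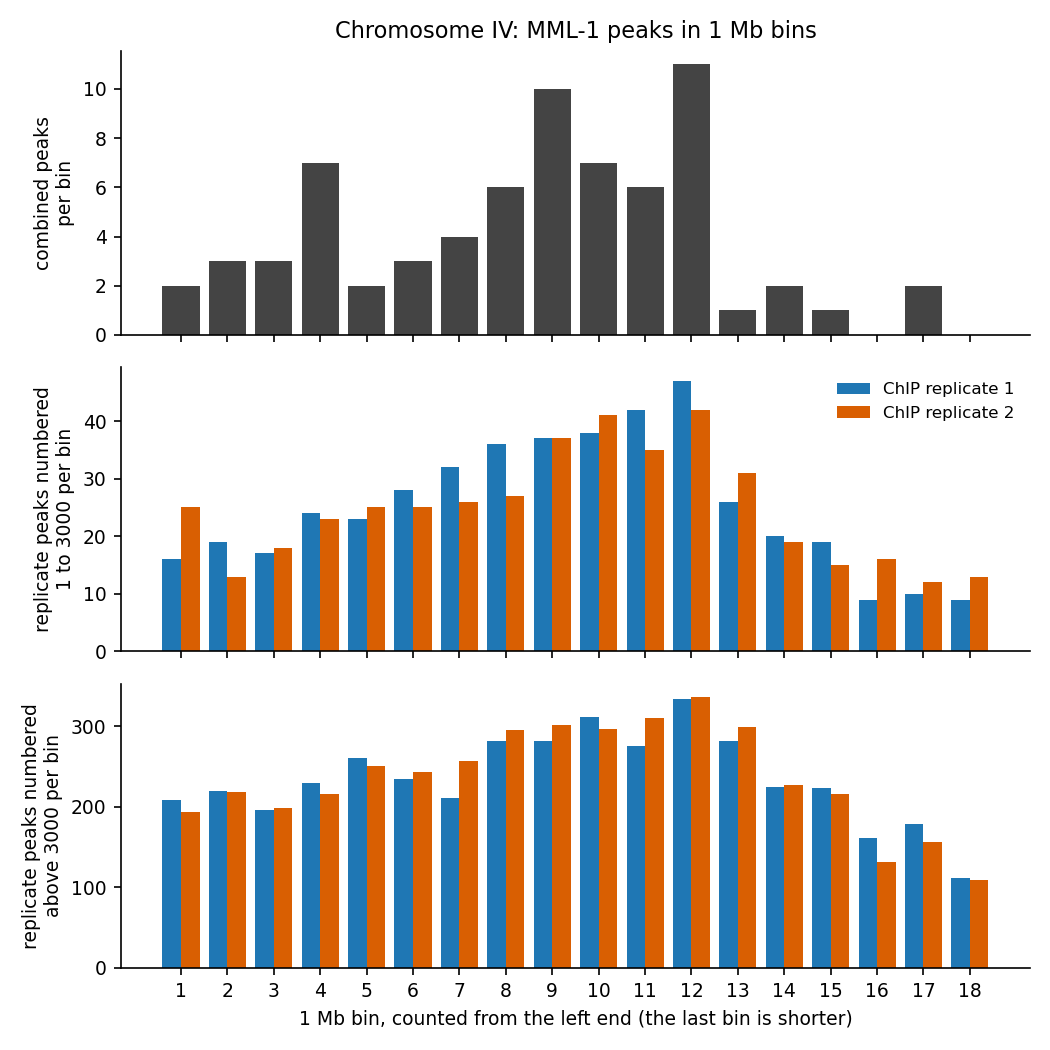
Number of chromosome IV peaks in each 1 Mb bin (x axis, bins counted from the left end) for the combined list (top), for replicate peaks numbered 1 to 3000 (middle) and for replicate peaks numbered above 3000 (bottom). Bars are counts, in blue for ChIP replicate 1 and orange for ChIP replicate 2. All 3 panels are highest at bin 12, where the combined list has 11 peaks and the replicates 47 and 42 members, and the combined list has no peak in bin 16.

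The background followed the same outline. Over the 17 full bins the member counts of the replicates were related across bins (Pearson r = 0.89, Spearman rho = 0.89), and so were members and background within a list (r = 0.89 in replicate 1 and 0.86 in replicate 2) and the backgrounds of the replicates (r = 0.94). The combined counts were related to the member counts with r = 0.82 in replicate 1 and 0.75 in replicate 2. These values describe neighbouring bins of 1 chromosome that share gene content, mappability and libraries, and no p-value belongs to them. As a share of all IV peaks of the list, members made up 9.67% in replicate 1 and 9.44% in replicate 2. By bin that share ran from 5.29% in bin 16 to 13.2% in bin 11 in replicate 1. In replicate 2 it ran from 5.63% in bin 2 to 12.2% in bin 10. Bin 16 was thus the lowest in replicate 1, while in replicate 2 its share was 10.9%.

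The centre held most members and the right arm fewest. Of the combined peaks, 39 of 70 lay in the centre (55.7%, 43.3 to 67.6%), 20 on the left and 11 on the right. This made 6.70, 3.43 and 1.89 peaks per Mb. Of the 11 on the right, 5 lay in a single locus, at 11955556 to 11962697, near the border with the centre. In replicate 1, 219 of 452 members were central (48.5%, 43.8 to 53.2%), with 123 on the left and 110 on the right, against 38.1% of the background peaks. In replicate 2, 197 of 443 were central (44.5%, 39.8 to 49.2%), with 127 on the left and 119 on the right, against 40.7% of the background peaks. The central share of the members lay above that of the background in both replicates. In replicate 1 the intervals did not overlap (background 36.6 to 39.6%). In replicate 2 they did (39.2 to 42.2%).

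Classes of 3000 peak numbers along the whole list gave a finer background. In replicate 1 the 9 background classes held 33.0 to 41.9% of their IV peaks in the centre, all below the 48.5% of the members. In replicate 2 they held 37.7 to 44.4%, so that the highest class, numbers 9001 to 12000, came to the level of the members. The central share was 41.9% in the first background class of each replicate, and 37.6% and 37.7% in the last. It fell between them without a steady course, so the background was not flat. All but 1 of the 18 background classes lay above the 33.3% that the centre makes of the span. Within the members of replicate 1 the central share showed no steady course with number. It was 8 of 15 for numbers 1 to 100, 62.3% for 101 to 500 (38 of 61), 39.4% for 501 to 1000 (28 of 71), 47.1% for 1001 to 2000 and 47.9% for 2001 to 3000. In replicate 2 it was 7 of 14, 50.8%, 50.7%, 43.6% and 39.2% in the same classes. The intervals of the first and last classes overlap in each replicate. Among the combined peaks, the 22 with a q-value below 1e-05 and the 48 others gave like shares, 59.1% and 54.2%. Of the 4 leading combined peaks, 2 lay on the right arm, 1 in the centre and 1 on the left arm.

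**Figure D2:**
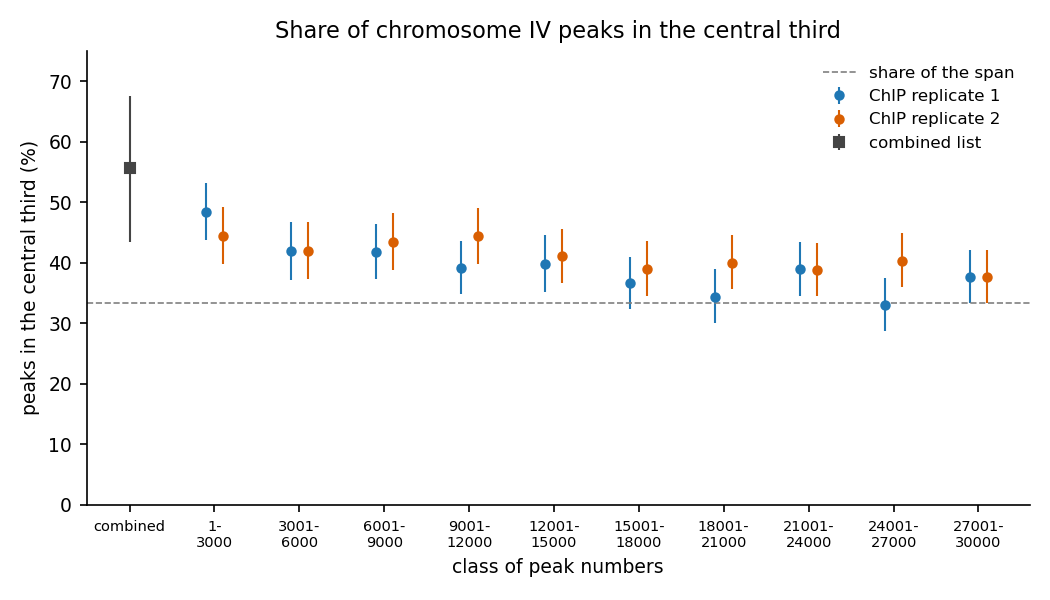
Percentage of chromosome IV peaks whose midpoint lay in the centre of the span, for the combined list and for classes of 3000 peak numbers (x axis) of ChIP replicate 1 (blue) and ChIP replicate 2 (orange). Points are shares, bars are exact 95% intervals for counting error, and the dashed line is the 33.3% of the span. The combined list stands at 55.7% and the members, numbers 1 to 3000, at 48.5% and 44.5%, the latter level with numbers 9001 to 12000 of replicate 2.

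Set against the other autosomes, IV was not at either end. On chromosome V the centre held 51.1% and 48.1% of the members of replicates 1 and 2, and on II it held 40.9% and 41.4%. The values of IV lay between these in both replicates. Chromosome I had 45.0% and 50.1%, and III had 47.9% and 48.7%. Both were below IV in replicate 1, where IV had 48.5%, and above it in replicate 2, where IV had 44.5%. In the combined list the central share was 60.6% on V, 55.7% on IV, 51.6% on I, 41.7% on III and 34.9% on II, the last close to the 33.3% of the span.

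The combined peaks of IV were unevenly spaced. Of the 69 gaps between neighbours, 26 were 10 kb or less, 15 of these under 1 kb, and 11 were over 500 kb. The median gap was 98630 bp. The widest stretches without a combined peak adjoined each other on the right arm. No combined peak lay between 14763500 and 16170798, a gap of 1407 kb, or between 13396551 and 14763305, a gap of 1367 kb. The stretches were not empty in the replicates. The first held 11 members of replicate 1 and 24 of replicate 2, the lowest numbers being 510 and 215, and the second held 24 and 18, the lowest being 153 and 489. A gap of 1118 kb on the left, between 4473077 and 5591237, held 25 and 24 members.

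Joining peaks whose gap was 10 kb or less gave 44 combined loci, 30 of them single peaks and 14 with 2 or more. The 6 loci with 3 or more peaks held 24 of the 70 peaks, and 4 of the 6 lay in the centre. By loci the centre held 23 of 44 (52.3%), the left arm 16 and the right arm 5. Among replicate members, 240 of 452 (53.1%, 48.4 to 57.8%) in replicate 1 and 249 of 443 (56.2%, 51.4 to 60.9%) in replicate 2 lay in loci of 2 or more. The background classes, of 430 to 500 peaks each, gave 38.9 to 49.2% and 39.5 to 51.4%. The members stood above every class in both lists, but their intervals overlapped that of the highest class (44.7 to 53.7% and 46.9 to 56.0%). Close neighbours set them apart more: 21.0% and 23.3% of the members had another member within 2 kb by midpoint, against 8.82 to 14.2% and 9.47 to 13.5% within the background classes. The median distance to the nearest member was 8876 bp and 8087 bp, against 10881 to 13768 bp and 10125 to 13615 bp. The member locus with the most peaks held 10 in replicate 1 and 7 in replicate 2, against at most 7 and 6 in a background class. These counts take overlapping peaks of a list as separate: 21 neighbouring members of replicate 1 and 30 of replicate 2 overlapped each other, against 4 to 11 and 5 to 13 in the background classes. With overlapping peaks joined first, 49.4% and 50.4% lay in loci of 2 or more, against 36.9 to 46.7% and 38.2 to 49.6%. The share with a neighbour within 2 kb was then 13.5% and 12.1%, against 6.19 to 10.9% and 6.28 to 10.8%, and the richest locus held 8 and 7. The members still stood above every background class, by less. For the share in loci the intervals again overlapped that of the highest class. They were 44.6 to 54.2% against 42.2 to 51.3% in replicate 1, and 45.4 to 55.3% against 45.0 to 54.2% in replicate 2.

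The 6 loci of 3 or more combined peaks differed in how the replicates filled them. On the right arm, at 11955556 to 11962697, 5 combined peaks lay within 7.14 kb, with 4 members of replicate 1 and 5 of replicate 2. Its peak at 11956368 to 11956710 (q = 1.98e-07) had numbers 158 and 132. The one at 11961076 to 11961266 held number 46 of replicate 2, and replicate 1 had no peak there. In the centre, at 6878790 to 6882854, 3 combined peaks all held members of both replicates, with numbers 3, 53 and 160 in replicate 1 and 2, 240 and 744 in replicate 2. On the left arm, at 3649110 to 3656188, the flanking peak at 3655900 to 3656188 had numbers 231 and 211. The one at 3652146 to 3652625 (q = 4.07e-09) ranked 343 in replicate 2 but 12982 in replicate 1. Of the 4 peaks there, 2 thus held members of both replicates.

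At a pair of central loci the combined peaks lay over lower numbers in replicate 1. At 8525874 to 8536299, 5 combined peaks in 10.4 kb came with 9 members of replicate 1 and 4 of replicate 2. The lowest number at a combined peak there was 48 in replicate 1 and 685 in replicate 2, but replicate 2 also had number 175 inside the locus, between the combined peaks. At 11148543 to 11150498, 4 combined peaks in 1.96 kb came with 2 members of each replicate, and the lowest number was 68 in replicate 1 and 1325 in replicate 2. At 10935227 to 10937141 the replicates had their lowest number at different neighbours, number 35 of replicate 1 at the first peak and number 47 of replicate 2 at the second, at 10935938 to 10936426. All 6 loci held a member of both replicates.

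**Figure D3:**
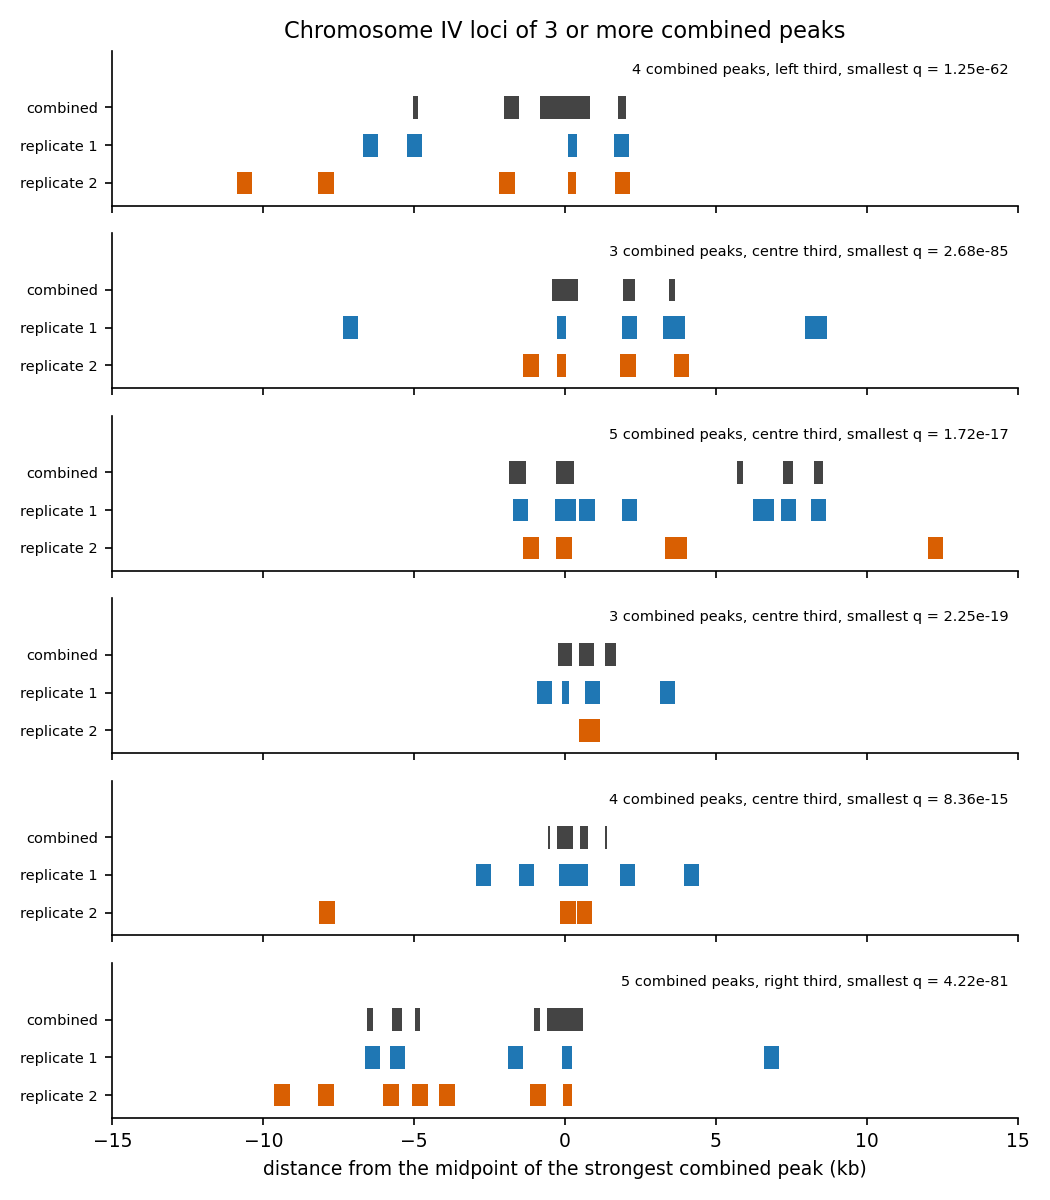
The 6 chromosome IV loci of 3 or more combined peaks. The x axis is the distance in kb from the midpoint of the combined peak with the smallest q-value in the locus. Bars show the extent of combined peaks (grey) and of members of ChIP replicate 1 (blue) and ChIP replicate 2 (orange) up to 15 kb away. In the locus with the smallest q, 2.68e-85, all 3 combined peaks lie over members of both replicates, and in the locus with q = 1.72e-17 most members come from replicate 1.

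The replicates shared most of their lowest-numbered members and few of the rest. Of the 452 members of replicate 1, 51 overlapped a member of replicate 2 (11.3%, 8.52 to 14.6%), against 3.95% of the background peaks. Of the 443 members of replicate 2, 57 overlapped a member of replicate 1 (12.9%, 9.89 to 16.3%), against 4.44% of the background peaks. When each background class was set against the same class of the other replicate, the shares were 3.40 to 4.91% and 3.07 to 5.14%. Counting any peak of the other list, 200 members of replicate 1 (44.2%) and 186 of replicate 2 (42.0%) overlapped one, against 32.1% and 32.8% of the background peaks. More than 50% of the members therefore had no overlapping peak in the other replicate at all.

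By number, the share of members overlapping a member of the other replicate was 12 of 15 for numbers 1 to 100 in replicate 1 and 11 of 14 in replicate 2. For numbers 101 to 500 it was 16 of 61 (26.2%) and 12 of 59 (20.3%). Numbers 501 to 1000 differed between the lists, with 2 of 71 in replicate 1 (2.82%, 0.343 to 9.81%) and 14 of 73 in replicate 2 (19.2%, 10.9 to 30.1%). For numbers 1001 to 2000 it was 12 of 140 (8.57%) and 7 of 149 (4.70%), and for numbers 2001 to 3000 it was 9 of 165 (5.45%, 2.52 to 10.1%) and 13 of 148 (8.78%, 4.76 to 14.6%). Beyond number 1000 the shares thus went up or down from class to class without order, at 4.70 to 8.78%. The background peaks of replicates 1 and 2 gave 3.95% and 4.44%. These lay inside the intervals for 2001 to 3000 in replicate 1 and 1001 to 2000 in replicate 2 (1.91 to 9.44%). They lay below those for 1001 to 2000 in replicate 1 (4.51 to 14.5%) and 2001 to 3000 in replicate 2. By position, the share was 14.2% and 17.3% in the centre, 9.76% and 11.0% on the left and 7.27% and 7.56% on the right, in the same order in both replicates but with overlapping intervals. Members in loci of 2 or more overlapped a member of the other replicate in 14.6% and 19.3% of cases, and members that lay alone in 7.55% and 4.64%. In replicate 2 the 2 intervals did not overlap (14.6 to 24.7% and 2.14 to 8.62%). Members are denser in loci and in the centre, and the part of density in these differences was not tested. Overlapping members of a list always fall in loci of 2 or more and can overlap the same member of the other replicate. The part of this double counting was not tested either.

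**Figure D4:**
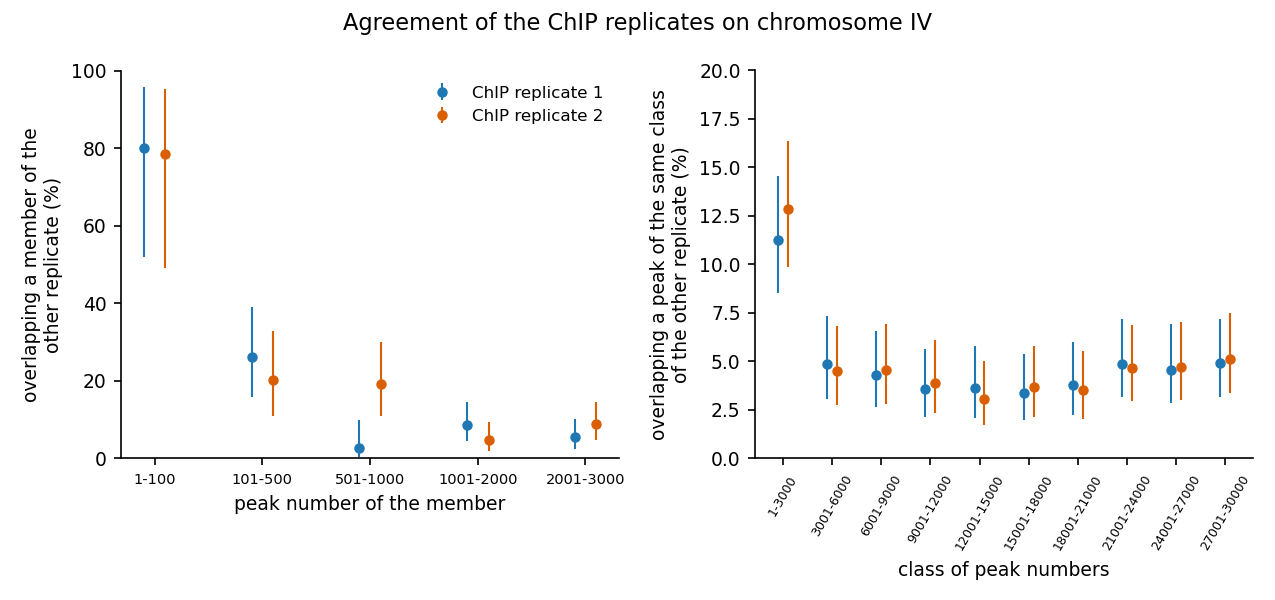
Left, percentage of chromosome IV members of each replicate that overlap a member of the other replicate, by peak number. Right, percentage of IV peaks that overlap a peak of the same class of 3000 numbers in the other replicate. Points are shares in ChIP replicate 1 (blue) and ChIP replicate 2 (orange), bars are exact 95% intervals. The share is 80.0% and 78.6% for numbers 1 to 100 and 5.45% and 8.78% for numbers 2001 to 3000, and the background classes on the right lie between 3.07 and 5.14%.

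The overlapping members formed 49 pairs that were mutually nearest. In 17 of them both members were numbered 500 or lower, and there the median distance between midpoints was 25.0 bp, with 14 of the 17 within 100 bp. In the other 32 pairs the median distance was 132 bp, and 13 lay within 100 bp. The 7 pairs with both numbers at 100 or lower lay 4.5 to 33.5 bp apart. The numbers of the paired members had a Spearman rho of 0.59 over all 49 pairs. It was 0.745 in the 17 pairs with both numbers at 500 or lower, but 0.064 in the other 32. In 22 of the 49 pairs the numbers were within a factor of 2, and in 5 they differed by more than a factor of 10. The latter were 48 and 2072, 68 and 1325, 220 and 2454, 817 and 75, and 1569 and 120 in replicates 1 and 2. The first 3 had the lower number in replicate 1. The last 2, at 4472627 to 4473130 and 7046537 to 7047040 in replicate 1, had it in replicate 2. A distance over overlapping pairs has an upper bound set by the peak width.

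Of the 70 combined peaks, 24 overlapped a member of both replicates (34.3%, 23.3 to 46.6%), 15 a member of replicate 1 only, 10 a member of replicate 2 only and 21 a member of neither. For comparison, 0.687% of the background peaks of replicate 1 and 0.541% of those of replicate 2 overlapped a combined peak. Of the members themselves, 41 of replicate 1 (9.07%) and 37 of replicate 2 (8.35%) did. The lists come from the same ChIP samples, so this agreement is not independent support. It was higher among combined peaks with small q-values. Of the 22 with a q-value below 1e-05, 17 overlapped members of both replicates (77.3%, 54.6 to 92.2%), and the other 5 a member of 1 replicate. Of the 48 with larger q-values, 7 overlapped members of both and 21 members of neither. Across the combined peaks, q-value and peak number had a Spearman rho of 0.72 in replicate 1 (n = 56) and 0.50 in replicate 2 (n = 46), and the numbers of the replicates 0.53 (n = 38). On the right arm 8 of 11 combined peaks overlapped a member of replicate 2 and 6 of 11 a member of replicate 1. In the centre 18 of 39 and 23 of 39 did. All these intervals overlap: 39.0 to 94.0% and 23.4 to 83.3% on the right, 30.1 to 62.8% and 42.1 to 74.4% in the centre.

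**Figure D5:**
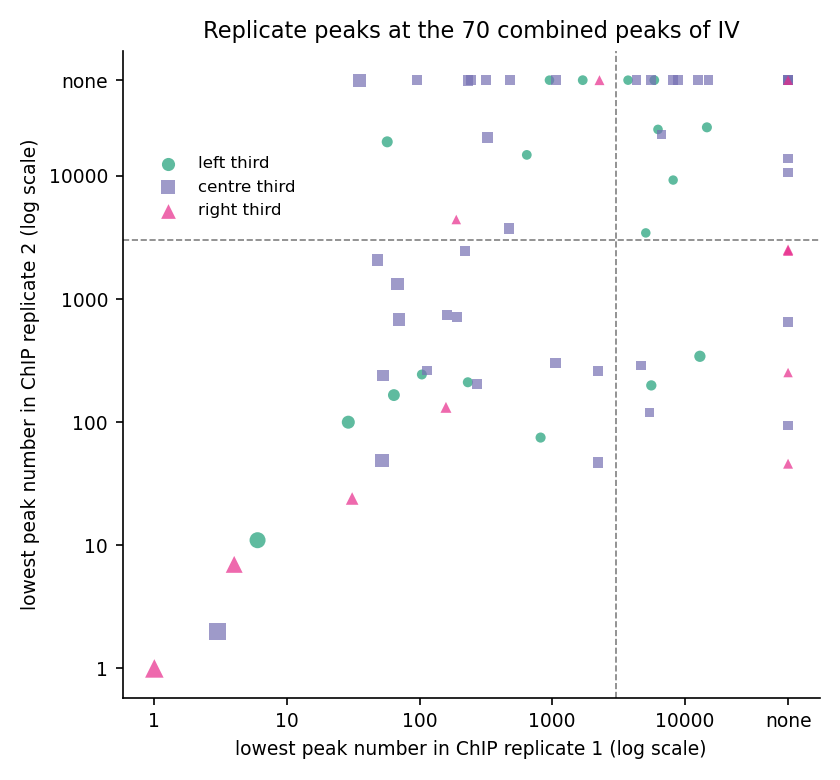
Lowest peak number overlapping each of the 70 combined peaks of IV in ChIP replicate 1 (x axis, log scale) and ChIP replicate 2 (y axis, log scale), with peaks that overlap none placed at the outer end. Symbols mark the left arm, centre and right arm, larger symbols have smaller q-values, and dashed lines mark number 3000. The 4 strongest combined peaks sit at the lower left with numbers of 11 or lower in both replicates, and 24 of the 70 peaks lie inside both lines.

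Of the combined peaks, 6 overlapped no peak of either replicate, all with q-values of 0.00229 or more. They lay at 620415 to 620614, 2083254 to 2083450, 7387186 to 7387476, 8782300 to 8782508, 11148543 to 11148604 and 14763305 to 14763500. Of these, the one at 7387186 lay 289 bp from number 342 of replicate 1, and the one at 11148543 lay 327 bp from number 68 of replicate 1. The one at 2083254 was 34131 bp from the nearest member of replicate 1 and 47559 bp from that of replicate 2. In the converse direction, all 15 IV peaks numbered 100 or lower in replicate 1 overlapped a combined peak, as did 11 of the 14 of replicate 2. The 3 without one were all central. Number 66, at 9511581 to 9512100, overlapped number 130 of replicate 1 and lay 849 bp from a combined peak. Number 99, at 7024148 to 7024667, overlapped number 232 of replicate 1 and lay 15 bp from a combined peak. Number 90, at 10856219 to 10856738, overlapped no replicate 1 peak with a lower number than 16023, and its nearest combined peak was 73884 bp away.

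When members of the 3 lists were joined across gaps of 10 kb or less, IV held 427 loci. Of these, 132 (30.9%) held members of both replicates, 147 held replicate 1 members alone and 131 replicate 2 members alone. The share with both replicates lay within the range of the background: without the combined list it was 31.1% of 425 loci, and in background classes joined the same way it was 26.2 to 34.2% of 481 to 523 loci. All 3 lists met at 27 loci, 17 of them central, 7 on the left and 3 on the right. These took in 53 of the 70 combined peaks, while 24 of the 70 overlapped a member of both replicates. No background share was computed for the 53. A further 105 loci held members of both replicates and no combined peak, a count to be read against the same background. The richest locus, at 8525874 to 8546293 in the centre, held 5 combined peaks, 10 members of replicate 1 and 5 of replicate 2. The next, at 11123920 to 11153553, held 4, 8 and 6. Among loci without a combined peak, those at 9084221 to 9113193, with 5 and 4 members, and at 12253430 to 12282871, with 4 and 5, held the most. Their lowest numbers were 748 and 657 in the first and 1178 and 1380 in the second. At 37 loci each replicate had 2 or more members, 22 of them central, and no background count was made for these.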

How the data were processed

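Anti-GFP ChIP-seq peak lists of L3 larvae were analysed. Per the file headers, positions are on WormBase WS220. For the combined peaks the authors deposited a q-value each and named PeakSeq as source. For the replicate peaks they deposited a score, on an unstated scale, and named spp_via_IDR. The aligner, tool versions, control and pooling of reads are unknown: not given in the sources used here. Lists hold no read counts, so depth is unknown. The inputs have no file analysed here.

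Peaks were placed by midpoint in bins and in 3 equal parts of the span, counted as overlapping at 1 bp or more, and joined into loci across gaps of 10 kb or less. Shares carry exact Clopper-Pearson 95% intervals. Background was taken from higher peak numbers on IV. The interval code was checked on simulated data. Scripts ran on Python 3.11.15 with scipy 1.17.1, pandas 2.3.3, matplotlib 3.10.9 and numpy 2.4.6. The members, lists and comparisons were chosen with earlier results of these data known. Regions named are the 12 combined peaks lowest in q-value, the 2 lowest per part and loci of 3 or more combined peaks. Combined peaks without a replicate peak and replicate peaks numbered 100 or lower without a combined peak are also named. So are the replicate peaks at the limit of 3000 and the widest gap. The other gaps, the pairs differing over 10-fold in number and the loci joined over 3 lists were chosen after their values were seen.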

Additional observations from a re-analysis of the deposited data

How the results depend on the processing

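No paired analysis was possible because no values of the inputs, which carry the same replicate numbers, were analysed here. Of 41 alternatives over 8 results, 23 moved the value by less than the replicate spread, its interval or, for counts, a factor of 1.5. For results averaged over the replicates, leaving 1 replicate out always moves the value by less than this spread. Such alternatives could only count as unmoved. Limits of 1000 and 6000 on the peak number gave 8.39 and 50.7 members per Mb in place of 25.6, and members in loci of 2 or more of 36.2% and 71.1% in place of 54.7%, both following from the number of peaks taken. A limit of 1000 also raised the central share of members from 46.5% to 50.5% and their overlap with the other replicate from 12.1% to 16.7%. The central 50% of the span held 71.4% of combined peaks and 66.7% of members. A 50% reciprocal overlap lowered the overlap between replicates to 8.49% and the combined peaks found in both to 18.6%, and a gap of 500 bp or less gave 14.4% and 51.4%. With a single replicate, 48.6% to 55.7% of combined peaks overlapped a member, against 34.3% for both. Joining gaps of 2, 5 and 20 kb put 25.3%, 38.9% and 72.2% of members in loci of 2 or more. Joining overlapping peaks of a list first, an alternative chosen after seeing the data, gave 49.9%. At 20 kb replicate 1, with 71.2%, no longer stood above its background classes (65.6 to 73.0%). The overlap of members between replicates has no value without a replicate. With depth unknown, a region missing from a list cannot be called unbound.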
